A study of Rattus norvegicus with 4 samples.

Results

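Imprinted fetal growth genes are genes that are read mainly from the copy of 1 parent and that act on growth before and soon after birth. The 9 genes described here, Igf2, Dlk1, Igf2r, Grb10, Plagl1, Peg3, Ndn, Cdkn1c and Mest, were taken by symbol from a table of 32883 genes, and each had a single entry. They were measured by RNA sequencing in the carotid body (CB), a small organ of the neck that senses oxygen in arterial blood. CBs came from Sprague Dawley rats, with 2 libraries from neonates at postnatal day 5 and 2 from adults at day 21. The labels name no genotype or treatment, other than age, that separates the groups. Per the labels, each neonatal library pooled the CBs of 6 pups and each adult library those of 3 rats, so the spread between libraries is a spread between pools. The methods of the study give other numbers of pooled animals and of replicates, and the labels were followed here. The age called adult is close to weaning. The comparison asks which of these genes change in the CB over the first postnatal weeks.

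In genomic imprinting, DNA methylation laid down in the egg or sperm marks 1 parental copy of a region, and the mark is kept through cell division so that the copies are read unequally. Many paternally expressed imprinted genes promote growth and many maternally expressed ones restrain it. Igf2 and Igf2r are the classic opposed pair, a growth factor and the receptor that removes it. The reads were not separated by parental copy, so every value below is the sum of both copies and says nothing of whether a gene was imprinted in these cells.

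The libraries held 36286191 to 39476110 estimated counts, and 3 counts corresponded to 0.0760 to 0.0827 CPM, far below all 9 genes in all 4 libraries. CPM is the count scaled to a common library total, with no scaling by gene length, so levels are compared between libraries and not between genes. Known glomus cell (oxygen-sensing cell) markers were detected in every library, all 13 of 13. Neonatal replicate 1 stood apart in parathyroid RNA: Pth, which encodes parathyroid hormone, was at 1595 CPM there, 194 CPM in neonatal replicate 2 and 0 in both adult libraries, and Gcm2, the parathyroid transcription factor, was at 19.9, 2.83, 0 and 0 CPM. Results are therefore also given without that library where this changes them. Both genes were also found in neonatal replicate 2 and in neither adult library. Leaving out neonatal replicate 1 therefore does not remove this difference between ages, and its part in the results was not tested.

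Promoter sequences are shown for Igf2 and Dlk1, the members that differed most between ages, and for Peg3, which was among those that did not pass the test. Each runs from 250 bases before to 50 bases after a RefSeq gene start on the GRCr8 assembly, written 5′ to 3′ along the gene; the reads were mapped to another assembly, Rnor_6.0. Igf2 has 2 such starts in RefSeq, at chr1:207250426-207250725 and chr1:207253931-207254230 on the minus strand. Dlk1 lies at chr6:134192347-134192646 and Peg3 at chr1:76130744-76131043, both on the plus strand. Capitals mark matches on either strand to the GC box GGGCGG, to CCAAT and to GGGGCCCC, a core of the Plagl1 binding site.
Igf2, start at lower coordinates: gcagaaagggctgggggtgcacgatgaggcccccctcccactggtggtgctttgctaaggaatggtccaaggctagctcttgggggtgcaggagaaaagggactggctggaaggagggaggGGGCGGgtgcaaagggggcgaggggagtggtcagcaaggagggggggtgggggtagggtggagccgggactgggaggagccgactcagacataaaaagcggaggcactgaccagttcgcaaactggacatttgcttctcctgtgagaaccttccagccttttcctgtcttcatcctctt
Igf2, start at higher coordinates: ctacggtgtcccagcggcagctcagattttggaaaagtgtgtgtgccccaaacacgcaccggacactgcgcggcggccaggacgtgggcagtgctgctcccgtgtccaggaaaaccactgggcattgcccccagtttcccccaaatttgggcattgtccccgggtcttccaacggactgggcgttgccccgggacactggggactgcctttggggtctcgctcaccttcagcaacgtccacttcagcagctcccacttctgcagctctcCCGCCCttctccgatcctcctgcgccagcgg
Dlk1: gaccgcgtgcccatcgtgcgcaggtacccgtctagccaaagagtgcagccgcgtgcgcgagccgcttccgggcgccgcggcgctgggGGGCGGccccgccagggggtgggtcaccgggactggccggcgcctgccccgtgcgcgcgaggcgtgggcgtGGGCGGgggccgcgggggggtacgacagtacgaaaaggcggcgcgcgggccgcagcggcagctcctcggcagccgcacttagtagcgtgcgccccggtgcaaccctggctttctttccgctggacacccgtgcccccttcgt
Peg3: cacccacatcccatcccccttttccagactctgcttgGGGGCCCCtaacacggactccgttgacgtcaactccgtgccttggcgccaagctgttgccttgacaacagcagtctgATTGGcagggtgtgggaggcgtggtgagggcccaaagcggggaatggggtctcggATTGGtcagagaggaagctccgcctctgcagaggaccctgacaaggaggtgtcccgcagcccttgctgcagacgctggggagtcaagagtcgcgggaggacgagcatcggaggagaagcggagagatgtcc

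Windows were found for 8 of the 9 members, 9 windows in all, and none for Cdkn1c. The GC box stood in 8 of these 9 windows, for 7 members, against 33.1% of all 33469 windows of the same length. Peg3 held none, but had 2 CCAAT matches and the single GGGGCCCC match, a motif found in 0.858% of all windows. CCAAT occurred in 37.5% of all windows and only in Peg3 among the members. TATAAA, in 14.2% of all windows, and ATGGCGG, in 4.80%, were in no member window. The median GC content was 64.7% over the member windows and 51.7% over all, and the median ratio of observed to expected CpG was 0.644 against 0.392. The 33469 windows were not limited to genes detected in the CB, as all 9 members were, and the part of this in the contrast was not tested. These are letters in a window and not mapped binding sites.

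With an adjusted p under 0.05 as the threshold, 6 of the 9 members were higher in neonates, none was lower, and Igf2r, Peg3 and Mest did not pass. Fold changes of neonates over adults are fitted on the TMM scale, so they differ from ratios of the CPM values printed beside them, and are given as log2 values with their standard error (SE), while p-values are Benjamini-Hochberg adjusted over the 13843 genes tested by edgeR's quasi-likelihood test. The median log2 fold change was 0.86 over the members, against -0.0029 over all genes tested. The members were chosen with earlier results of these data known, so this difference is a description and not a test. Among all genes tested, 31.2% were higher and 31.1% lower in neonates at this threshold, so the call alone is common. With a change of at least 2-fold as well, 7.68% of genes were higher and 13.2% lower, and 3 members, Igf2, Dlk1 and Cdkn1c, were higher. At an unadjusted p under 0.05, 8 members were higher and 0 lower by edgeR, against 33.1% and 33.0% of all genes tested, and no member was lower by DESeq2 or limma-voom. In a bulk tissue, fewer cells of a type and less RNA per cell cannot be told apart.

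The CPM ranges of the 2 ages did not overlap for 6 members, with neonates above adults for 5 and below for Mest. Among all genes tested, both neonatal libraries lay above both adult ones for 27.9% and below them for 55.3%. After scaling by trimmed mean of M-values (TMM), which corrects for the share of reads taken by other genes, neonates lay above adults for 8 members and Mest overlapped. The background on that scale was 41.3% above and 41.7% below.

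**Figure D1:**
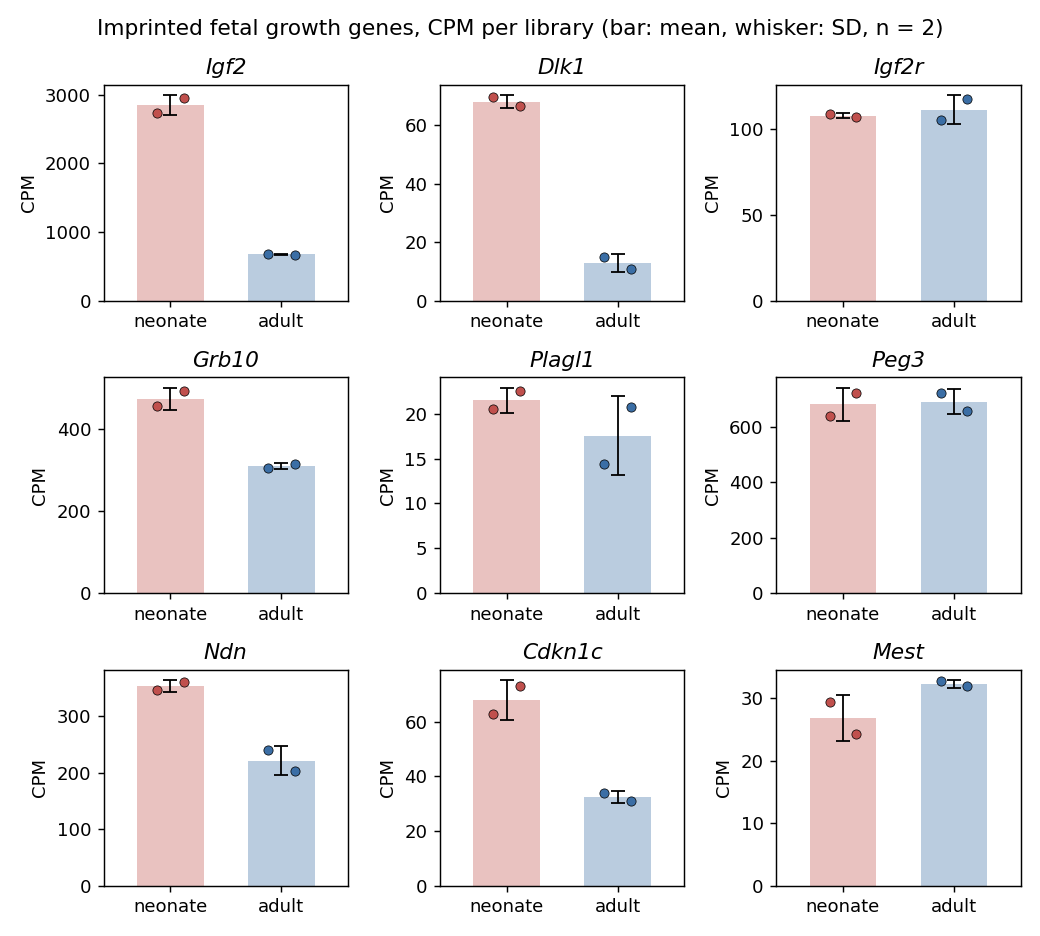
CPM (linear axes from 0, one panel per gene) of the 9 members, with a point for each of the 4 libraries, a bar for the mean of each age and a whisker for the SD (n = 2). The neonatal points of Igf2, at 2742 and 2950 CPM, sit far above its adult points, at 682 and 664 CPM. For Igf2r and Peg3 the neonatal and adult ranges overlap.

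The ligands changed most. Igf2 encodes insulin-like growth factor 2, a paternally expressed fetal growth factor. It was at 2742 and 2950 CPM in the neonatal libraries and at 682 and 664 CPM in the adult ones. The ages did not overlap, and the libraries of each age lay close together. Igf2 was 5.01-fold higher in neonates (log2 fold change 2.33, SE 0.10, edgeR adjusted p = 1.4e-06), which was above 99.0% of all genes tested. With each library left out in turn the log2 fold change stayed between 2.27 and 2.36.

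Dlk1 encodes a paternally expressed membrane protein related to the Notch ligands, which also occurs in a soluble form and is known for restraining the differentiation of precursor cells. Its level was 69.5 and 66.4 CPM in neonates and 14.96 and 10.8 CPM in adults. The adult libraries differed more from each other, in proportion, than the neonatal ones did, but remained far below them. The gene was 6.25-fold higher in neonates (log2 fold change 2.64, SE 0.15, edgeR adjusted p = 3.7e-06), above 99.5% of all genes tested. Leaving out libraries gave 2.39 to 2.88.

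The counts of Igf2 made up 0.274% and 0.295% of all counts in neonates and 0.0682% and 0.0664% in adults. The 9 members together fell from 4472 and 4820 CPM to 2149 and 2053 CPM; without Igf2 they stood at 1731 and 1870 CPM in neonates and 1468 and 1389 CPM in adults. Igf2 held 61.3% and 61.2% of the member counts in neonates and 31.7% and 32.4% in adults.

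Among the receptor and adaptor genes, Grb10 changed and Igf2r did not pass the test. Igf2r encodes the mannose 6-phosphate receptor, which takes up and degrades IGF2 and is maternally expressed in rodents. Its level was 109 and 107 CPM in neonates and 105 and 117 CPM in adults, overlapping ranges. The log2 fold change was 0.20 (SE 0.08, edgeR adjusted p = 0.055), with an unadjusted 95% interval of 0.02 to 0.38. The sign depended on the scaling: with library size alone it was -0.046. It passed with a replicate block (0.20, adjusted p = 0.034) and with TMM factors set without mitochondrially encoded and ribosomal protein genes (0.21, adjusted p = 0.045).

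Grb10 encodes an adaptor that binds the insulin and IGF1 receptors and damps their signal. It was at 455 and 492 CPM in neonates and 304 and 316 CPM in adults, with no overlap. The gene was 1.81-fold higher in neonates (log2 fold change 0.86, SE 0.08, edgeR adjusted p = 3.9e-05).

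The ratio of Igf2 to Igf2r counts was 25.2 and 27.6 in neonates and 6.46 and 5.66 in adults, a 4.36-fold difference. The ratio of Igf2 to Igf1 counts was 165 and 172 in neonates and 41.8 and 36.7 in adults. The ratio of Dlk1 to Igf2 counts differed less, at 0.0254 and 0.0225 in neonates and 0.0219 and 0.0162 in adults, a 1.27-fold difference. An exact two-sided permutation test over 2 against 2 libraries gave p = 0.333 for each of the 3 ratios, the smallest p that this design allows.

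Of the nuclear regulators, Cdkn1c changed most. It encodes p57, a maternally expressed inhibitor of cyclin-dependent kinases that holds cells out of the cycle. Its level was 62.8 and 73.1 CPM in neonates and 34.0 and 31.0 CPM in adults, with no overlap. It was 2.48-fold higher in neonates (log2 fold change 1.31, SE 0.10, edgeR adjusted p = 1.6e-05). The related inhibitor Cdkn1a, which also mediates the p53 response, was lower in neonates (log2 fold change -0.78, SE 0.13, adjusted p = 0.00081), and Cdkn1b had a log2 fold change of 0.02 (adjusted p = 0.88). Cell cycle genes moved with age as well: 14 of 15 were higher in neonates, all by at least 2-fold, with summed levels of 963 and 872 CPM in neonates and 344 and 347 CPM in adults. Their part in the difference of the growth genes was not tested.

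Ndn encodes necdin, a paternally expressed protein of the MAGE family known for its role in postmitotic neurons. It was at 347 and 361 CPM in neonates and 240 and 204 CPM in adults. Both neonatal values exceeded both adult ones. On the TMM scale the gene was 1.89-fold higher in neonates (log2 fold change 0.92, SE 0.10, edgeR adjusted p = 6.9e-05). Without adult replicate 1 it reached 1.02, which raised the number of members past the 2-fold limit from 3 to 4. Of its MAGE relatives, Magel2 (1.21, adjusted p = 0.00035) and Maged2 (0.69, adjusted p = 0.00013) were higher in neonates, and Maged1 had a log2 fold change of -0.01 (adjusted p = 0.96). Neuronal markers were higher in neonates for 7 of 8 genes, with sums of 2350 and 2181 CPM in neonates against 1941 and 1620 CPM in adults, and their part in the Ndn difference was not tested.

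Plagl1 encodes a zinc finger transcription factor that acts on a network of imprinted genes. It was at 20.5 and 22.5 CPM in neonates and 14.4 and 20.7 CPM in adults. The higher adult library lay within the CPM range of the neonates, and the other was well below it. The gene was 1.45-fold higher in neonates (log2 fold change 0.54, SE 0.16, edgeR adjusted p = 0.017). The call rested on adult replicate 1: without it the log2 fold change was 0.28 (adjusted p = 0.14). Its relatives moved the other way, with Plag1 at -1.42 (SE 0.19, adjusted p = 0.00024) and Plagl2 at -0.44 (SE 0.12, adjusted p = 0.010).

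Peg3 encodes a paternally expressed zinc finger protein linked to growth and maternal behaviour. It was at 638 and 723 CPM in neonates and 722 and 657 CPM in adults. The ages overlapped. The log2 fold change was 0.22 (SE 0.10, edgeR adjusted p = 0.072), with an unadjusted 95% interval of 0.0036 to 0.44. Like that of Igf2r, it had the opposite sign with library size alone, at -0.020. It passed by DESeq2 (0.22, adjusted p = 0.024), by limma-voom (0.22, adjusted p = 0.047) and with a replicate block (0.22, adjusted p = 0.038).

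Mest encodes a paternally expressed protein of the alpha/beta hydrolase family. It was at 29.4 and 24.3 CPM in neonates and 32.7 and 31.9 CPM in adults. The log2 fold change was -0.02 (SE 0.12, edgeR adjusted p = 0.90), with an unadjusted 95% interval of -0.29 to 0.25. Without neonatal replicate 2 the estimate was 0.15.

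**Figure D2:**
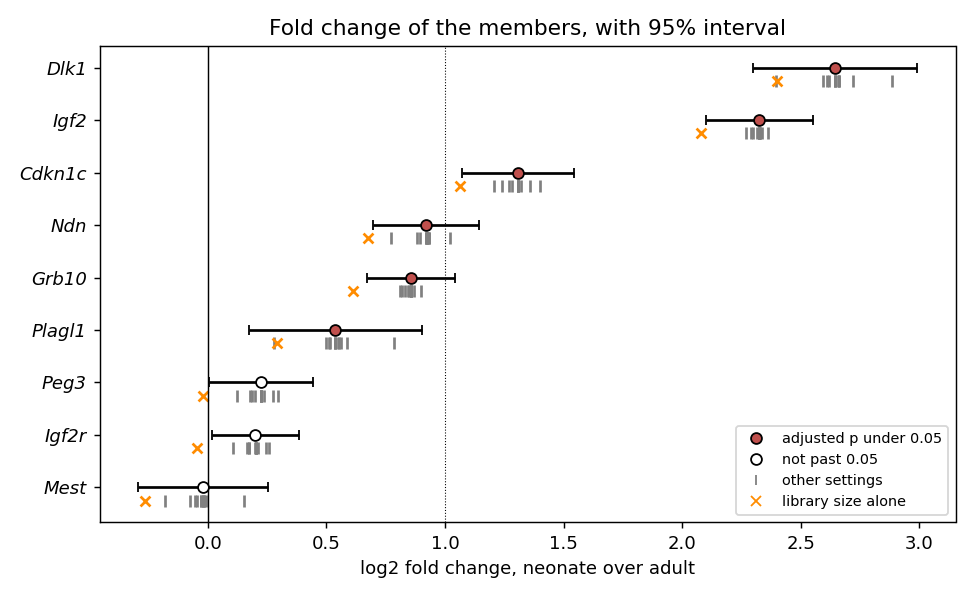
Log2 fold change (neonate over adult) of each member with its unadjusted 95% interval (filled points passed an adjusted p of 0.05; the dotted line marks 2-fold), above ticks for its values under the alternative settings and a cross for library size alone. Igf2 (2.33), Dlk1 (2.64) and Cdkn1c (1.31) stay far from zero in all settings, and library size alone moves all members downwards.

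The other protein-coding genes reported as imprinted did not move in 1 direction. Of 60 such genes, 56 were in the table and 48 could be tested; 12 were higher in neonates, 17 lower and 19 did not pass, with a median log2 fold change of -0.11. Begain, which lies beside Dlk1, was higher in neonates (log2 fold change 2.47, SE 0.13, adjusted p = 2.9e-06), at 37.8 and 31.9 CPM in neonates and 7.36 and 7.52 CPM in adults. Ascl2, a transcription factor of the placenta, was also higher (1.93, SE 0.38, adjusted p = 0.0022), from low levels of 2.53 and 3.69 CPM in neonates and 0.741 and 1.19 CPM in adults. Lowest in neonates relative to adults were Slc22a3, a cation transporter (-3.61, SE 0.46, adjusted p = 0.00017), and Kcnk9, a potassium channel of the TASK group (-3.37, SE 0.17, adjusted p = 2.4e-06). Slc22a3 was at 0.329 and 0.208 CPM in neonates and 2.96 and 4.91 CPM in adults. Kcnk9 was at 2.79 and 2.31 CPM in neonates and 33.8 and 28.7 CPM in adults. The non-coding imprinted RNAs H19 and Meg3 were not analysed here.

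**Figure D3:**
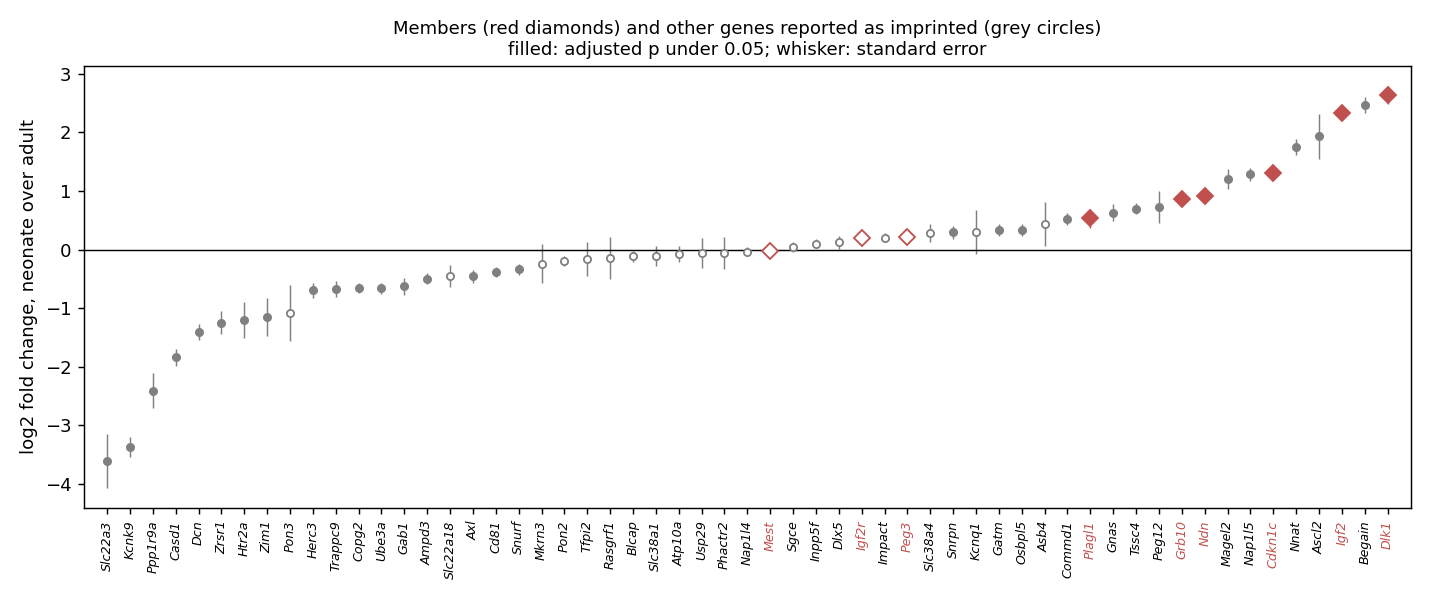
Log2 fold change (neonate over adult, with standard error) of the 9 members and of the 48 other tested genes reported as imprinted, in ascending order. Dlk1, Begain and Igf2 are at the upper end, Slc22a3 and Kcnk9 at the lower.

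The IGF axis was not higher in neonates as a whole, although Igf2 was. Of 24 genes for ligands, receptors, binding proteins, proteases and mRNA-binding proteins, 17 could be tested: 4 were higher in neonates, 11 lower and 2 did not pass, with a median log2 fold change of -0.49. The median depended on which low genes entered, from -0.080 with no filter on low counts to -0.85 with a mean of at least 5 CPM, and was -0.74 with library size alone. Igf1, the ligand that carries growth after birth, was at 16.6 and 17.2 CPM in neonates and 16.3 and 18.1 CPM in adults (0.22, SE 0.12, adjusted p = 0.15). The signalling receptor genes were lower in neonates. Igf1r, for the receptor through which both ligands signal, was at 2.23 and 2.29 CPM in neonates and 10.8 and 11.9 CPM in adults (-2.08, SE 0.22, adjusted p = 6.6e-05). Insr, the insulin receptor gene, was at 14.3 and 17.7 CPM in neonates and 39.9 and 40.9 CPM in adults (-1.09, SE 0.11, adjusted p = 5.3e-05).

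Binding proteins and RNA-binding proteins differed among themselves. Igfbp2, a secreted binding protein, was higher in neonates (3.46, SE 0.46, adjusted p = 0.00022) from low levels, 1.95 and 3.38 CPM in neonates and 0.318 and 0.248 CPM in adults. Igf2bp3 and Igf2bp2, which encode proteins that bind Igf2 mRNA, were higher (2.25, adjusted p = 0.00019, and 1.73, adjusted p = 1.2e-05). Igf2bp1 was too low to be tested, at 0.659 and 1.90 CPM in neonates and 0.503 and 0.220 CPM in adults. The protease gene Pappa2, which releases IGFs from binding proteins, was lower in neonates (-1.42, SE 0.16, adjusted p = 8.7e-05). Without neonatal replicate 1, 2 genes of the axis were higher and 7 lower; without adult replicate 2, 7 were lower.

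**Figure D4:**
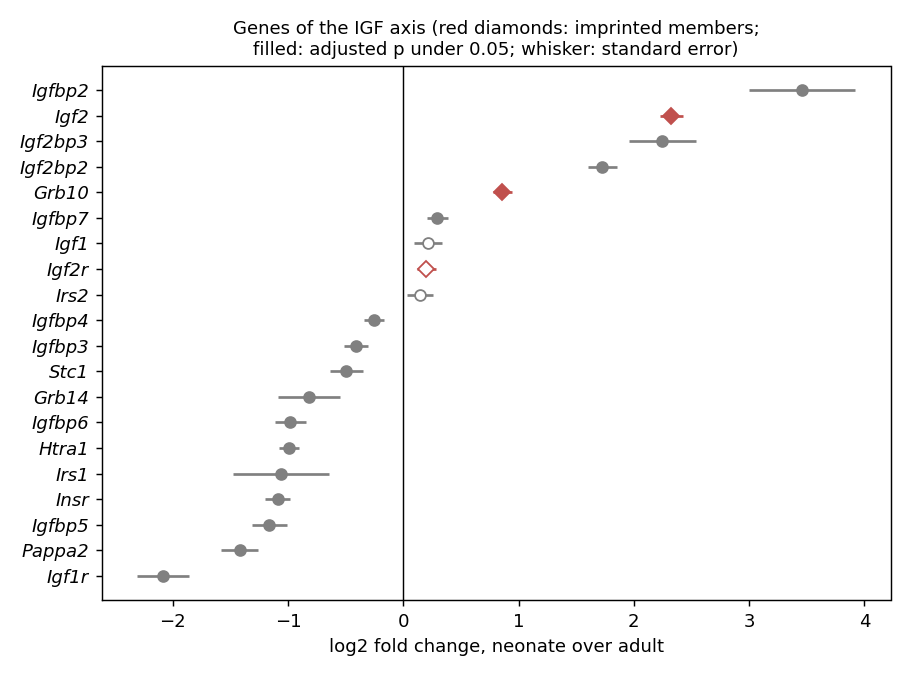
Log2 fold change (neonate over adult) with standard error for the IGF axis genes tested and for Igf2, Grb10 and Igf2r. Igf2 sits beside Igfbp2 and Igf2bp3 at the upper end, and Igf1r, at -2.08, is the lowest.

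Gene order around the members was taken from RefSeq on GRCr8, after values had been seen, to show what lies beside them. Within 5 places of a member, 51 neighbours could be tested: 17 were higher in neonates, 15 lower and 19 did not pass, with a median of -0.035, close to the shares of all genes. Begain is the gene next to Dlk1. Neighbours not listed as imprinted were also higher, such as Fignl1, 2 places from Grb10 (2.20, edgeR adjusted p = 3.6e-06), and Aurkc, 2 places from Peg3 (1.73, adjusted p = 3.9e-06). Peg3 lies between Usp29 (-0.06, adjusted p = 0.86) and Zim1 (-1.15, adjusted p = 0.013), both reported as imprinted. Igf2 has Mrpl23, a mitochondrial ribosomal protein gene, on one side (0.91, adjusted p = 4.1e-05), and the glomus cell enzyme gene Th 3 places away on the other (-0.45, adjusted p = 0.016). Ndn has Magel2 beside it, and Mkrn3 next in order had a log2 fold change of -0.24 (adjusted p = 0.55). Copg2, next to Mest and overlapping its end in the mouse, was lower in neonates (-0.66, adjusted p = 0.00025). Slc22a3 is 3 places from Igf2r. The strand setting of the counting is not given in the sources used here, so reads of a member and of an antisense partner such as Airn at Igf2r cannot be told apart.

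**Figure D5:**
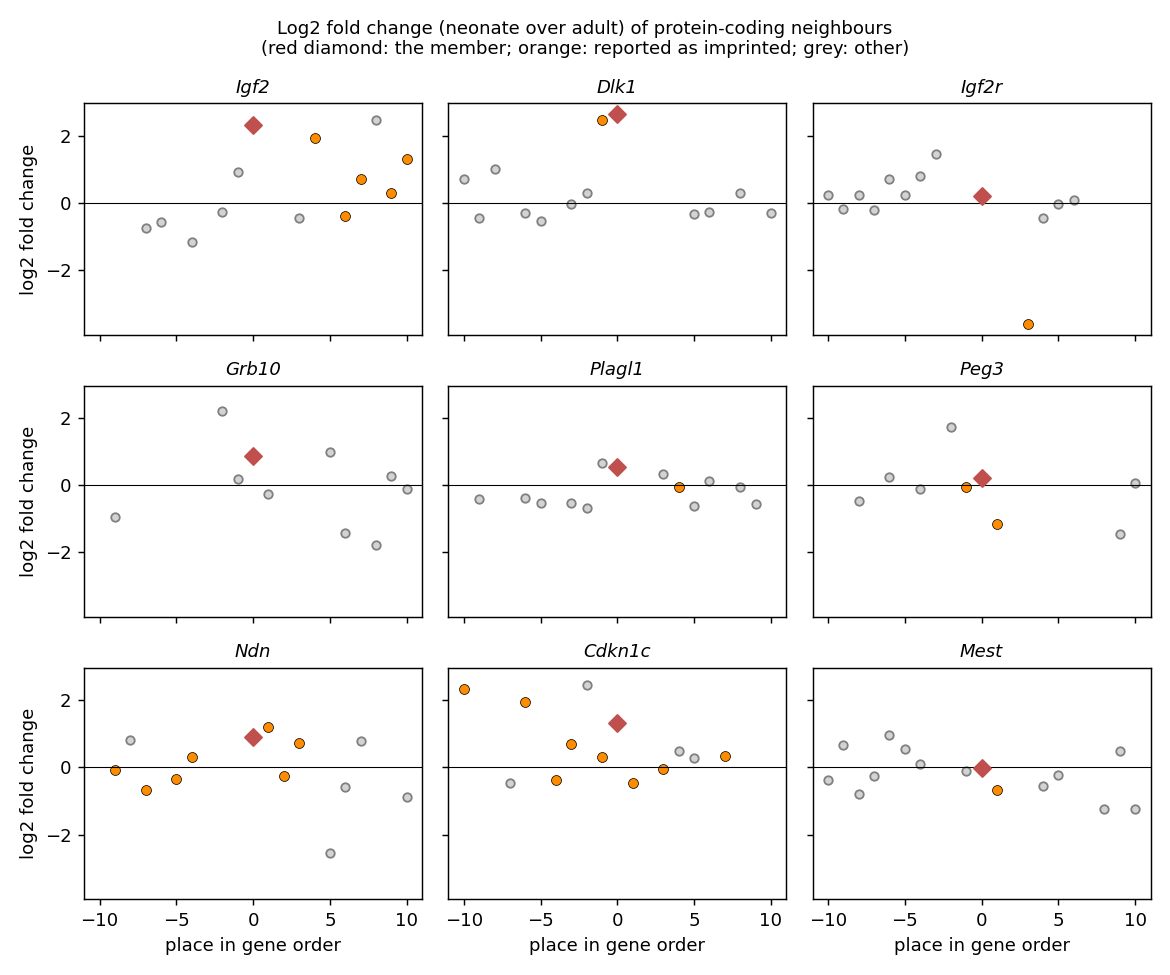
Log2 fold change (neonate over adult) of protein-coding genes up to 10 places on either side of each member, by place in gene order (0 is the member, red; orange marks the other members and genes reported as imprinted). Begain (2.47) beside Dlk1 and Magel2 (1.21) beside Ndn are above zero, as is Trpm5 (2.45) near Igf2, which is not marked orange. Zim1 (-1.15) beside Peg3 is below zero, and Slc22a3 near Igf2r, at -3.61, is the lowest point.

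Cell type markers moved with age alongside these genes. Of 8 fibroblast markers, 5 were lower in neonates and 1, Postn, was higher (2.47), with sums of 12823 and 15779 CPM in neonates and 17447 and 19565 CPM in adults. Of 7 endothelial markers 4 were lower and 1 higher, and of 8 smooth muscle and pericyte markers 5 were lower and 1 higher. Of the 13 glomus markers 5 were higher, 4 lower and 4 did not pass, a split near the shares of all genes. All 4 erythroid markers were higher in neonates. Of 4 parathyroid and thyroid markers tested, 3 were higher in neonates and 0 lower. Of 8 macrophage markers 7 were lower in neonates and none higher, with sums of 107 and 124 CPM in neonates and 220 and 229 CPM in adults. Skeletal muscle RNA was present at low levels: the 10 markers in the table summed to 24.6 and 29.9 CPM in neonates and 53.7 and 59.9 CPM in adults, and of the 5 tested 1, Myh3, was lower in neonates. Its regulator gene Myod1 was at 0 in all libraries. The part of these marker differences in the results of the 9 members was not tested.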

How the data were processed

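Pooled CB RNA was sequenced in 2 libraries at each age, postnatal day 5 and day 21. The values deposited by the authors are estimated counts of each gene, obtained with STAR and Salmon 1.5.2 on Rnor_6.0 and not normalized; all 9 members had whole counts (within 0.002). They were rounded for use in R 4.3.3. By symbol, 636 entries that RefSeq lists as non-coding were dropped. A further 13665 entries had no match in RefSeq and were kept, so the background is not limited to known coding genes. The 13843 genes that reached 1 CPM in 2 or more libraries were tested. Neonates were compared with adults by edgeR 4.0.16's quasi-likelihood test with TMM factors and no covariates. Alternatives used DESeq2 1.42.0, limma 3.58.1 (voom), other scalings and filters, a replicate block and each library left out in turn, 13 settings in all. The procedure was tested on simulated counts of 13648 genes, of which 200 were changed. It recovered 79 of 98 genes with a true absolute log2 change of 1 and 101 of 102 with 2. It also called 11 unchanged genes at an adjusted p under 0.05. Fewer genes were changed there than were called in these data, so the simulation does not cover that setting.

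The members and gene lists were chosen with earlier results of these data known. Named genes are the 9 members, preset partners of Igf2 and all genes of lists with 5 or fewer measured. From each list, the 2 genes higher and the 2 lower in neonates with the largest change past an adjusted p of 0.05 are named. So are the 3 genes nearest in profile to each of the 2 members that changed most. Neighbours and some marker genes were named after their values were seen. Intervals and count floors cover counting error or library spread only. With 2 libraries per age, p-values and intervals use a spread between pools that is estimated partly from other genes. Libraries of 1 age differed beyond sampling noise (chi-square per degree of freedom 32.6 in neonates and 15.4 in adults); no pair agreed within sampling noise. Some genes are not reported here.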

Additional observations from a re-analysis of the deposited data

How the results depend on the processing

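Of 117 member values under the 13 settings, 107 kept their direction and their side of the adjusted p of 0.05; Igf2, Dlk1, Grb10, Ndn and Cdkn1c did so in all of them. Library size alone moved the median of all genes by -0.25 and the share of calls that were higher in neonates from 36.8% to 21.6%; there Igf2r was -0.046 (adjusted p = 0.66) and Peg3 -0.020 (adjusted p = 0.88), both of reversed sign, Plagl1 was 0.29 (adjusted p = 0.16), and 704 genes were higher. A mean of at least 5 CPM gave 654 higher and 1169 lower genes, and an adjusted p alone 4325 and 4300, with 6 members higher, against 1063 and 1822 genes and 3 members by edgeR as described. Igf2r passed at 0.21 with TMM factors set without mitochondrially encoded and ribosomal protein genes (adjusted p = 0.045). Peg3 passed at 0.22 by DESeq2 (adjusted p = 0.024) and at 0.22 by limma-voom (adjusted p = 0.047). With each library left out in turn, the log2 fold change ran from 0.28 to 0.78 for Plagl1 and from -0.18 to 0.15 for Mest. The replicate numbers are shared across ages but only as numbers (correlation of deviations -0.0154); with a replicate block Igf2r was 0.20 (adjusted p = 0.034) and Peg3 0.22 (adjusted p = 0.038), both then past the threshold, and no other member changed its call. The causes were not tested. Of 234 list values, 215 stayed within the limits set; with library size alone 2 in place of 6 Notch partners of Dlk1 were higher in neonates.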

Other observations

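Dlk1's partners in the Notch pathway, through which neighbouring cells signal, moved less than Dlk1, which itself lay above 99.5% of all genes tested. Of 12 tested, 6 were higher in neonates, 2 lower and 4 did not pass (median log2 fold change 0.20), against 31.2% higher and 31.1% lower among all genes. None was higher by 2-fold, against 7.68% of all genes tested. The target gene Heyl (0.87, edgeR adjusted p = 5.3e-05) and the receptor gene Notch4 (0.66, adjusted p = 0.0071) were highest, and Notch3 (-1.0010, adjusted p = 0.00030) and Notch2 (-0.54, adjusted p = 0.0077) were lowest. With library size alone, 2 of the 12 were higher in neonates.

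Genes that keep or remove the methylation of imprinted regions moved in both directions: 3 of 12 were higher in neonates and 8 lower, with a median log2 fold change of -0.94. Uhrf1, which brings the maintenance methyltransferase to replicated DNA, was at 41.4 and 38.2 CPM in neonates and 10.8 and 11.3 CPM in adults (2.09, adjusted p = 2.4e-06), and Dnmt1, that methyltransferase, was also higher (0.58, adjusted p = 0.00025). The demethylase gene Tet3 (-1.75, adjusted p = 0.00097) and the zinc finger gene Zfp445 (-1.57, adjusted p = 2.2e-05) were lower. Without adult replicate 2, 5 were lower.

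The profiles closest to Igf2 over the 4 libraries, by Euclidean distance of centred log2 CPM, were those of LOC100359539 (0.0535), Kif20b (0.0642) and Hmgb2 (0.0699). Those closest to Dlk1 were LOC100912373 (0.0733), Tonsl (0.159) and Rtbdn (0.190). The distances rest on 4 libraries of 2 ages.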
